A study of Mus musculus with 24 samples.

Results

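The interleukins, the tumor necrosis factor (TNF) ligands and their receptors were followed in a gene count table of whole mouse liver. Members were the gene rows whose symbol begins with Il, Tnfsf or Tnfrsf followed by a digit, together with Tnf, Lta and Ltb, which gave 118 of 56205 rows. Of these, 17 held no count in any library and 56 passed the filter on low counts, which kept 14109 genes in all. The members comprised 53 rows for ligands, 62 for receptors or binding proteins and 3 for neither, and 83 of the symbols were of the interleukin kind and 35 of the TNF kind.

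Interleukins are small secreted proteins through which leukocytes, epithelium and stromal cells signal to each other, and most act through receptors built of a specific chain and a chain shared among several cytokines. Ligands of the TNF family act mostly as trimers, and their receptors recruit TRAF adaptors or, where they carry a death domain, proteins that can start cell death. In liver, resident Kupffer cells, infiltrating monocytes, lymphocytes, stellate cells and the biliary epithelium make or sense these signals, and hepatocytes carry several of the receptors, among them those for TNF and IL-6.

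C57BL/6J mice, males and females in equal number in each diet, were kept for 20 weeks on a methionine-choline deficient (MCD) diet rich in fat or on its control diet, with 12 livers per diet. No transgene or engineered allele is named for the animals, and the age of the animals at the start of this diet was not given in the sources used here. The labels do not tie a library to a sex, so the sexes were pooled. Replicates are separate animals of one diet.

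Total counts per library ran from 16793207 to 24915175 in control and from 16388650 to 24577848 in MCD. The 8 hepatocyte markers summed to between 58970 and 175500 CPM (library-scaled counts) in every library, so the defining markers of liver were present. Scaling factors of the libraries (TMM, trimmed mean of M values) did not overlap between the diets, running from 0.642 to 0.973 in control and from 1.07 to 1.26 in MCD. Scaling by total counts alone moved the median difference of all genes by 0.36 on the log2 scale, and upper-quartile scaling moved it by 0.15. Levels below are CPM, counts set relative to the TMM-scaled total of the library, differences are log2 fold changes of MCD over control with the standard error (SE), and a gene was called at an FDR of 0.01 or less with an absolute log2 fold change above 0.5. The livers were measured in bulk, so more cells of a type and more RNA per cell cannot be told apart.

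Among the 33 members whose counts passed the filter in each diet on its own, 15 were higher in MCD, 2 were lower and 16 did not pass the test, with a median log2 difference of 0.41. Of the 11633 genes of the whole table that passed in the same way, 13.4% were called higher and 20.9% lower, with a median of -0.15. A further 18 members passed the filter through MCD alone, reaching its limit in every MCD library but not in every control library. Of these, 15 were called higher and 3 were not called. Entering in this way favors genes that are higher in MCD, so these calls are not independent of the filter. The remaining 5 passed only over both diets combined. In total 31 of the 56 tested members were higher and 3 were lower, beside 19.2% and 19.1% of all genes tested. For 16 of the 56, every MCD liver was above every control liver, beside 9.5% of all genes tested, and for 0 members was every MCD liver below every control liver, beside 4.88%. Of these 16, 9 had passed the filter through MCD alone and 7 were among the 33 that passed it in each diet. The share of such separate genes was not computed over all genes that passed in each diet.

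**Figure D1:**
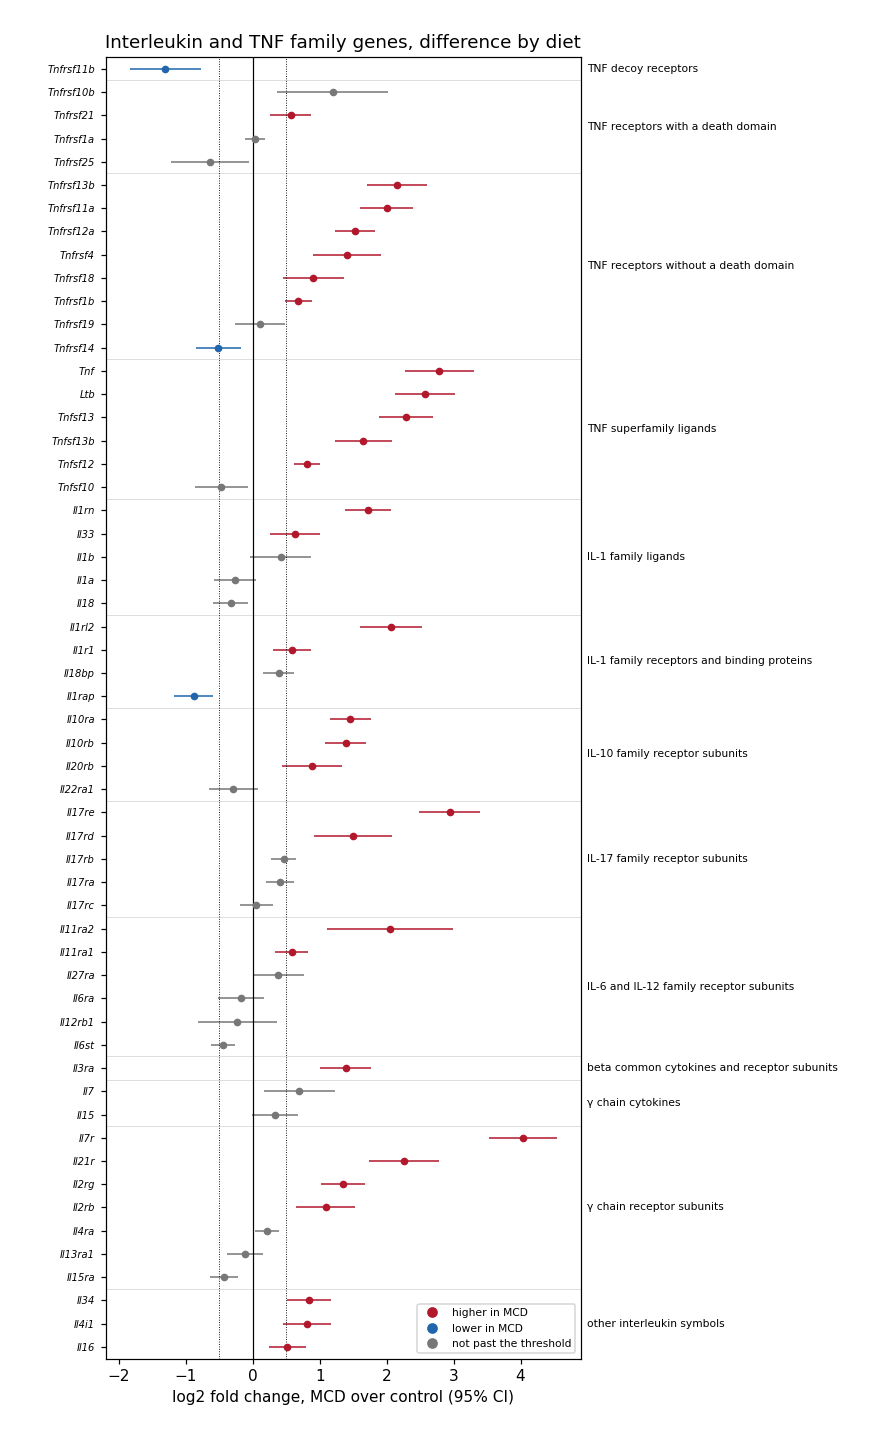
Points give the log2 fold change of MCD over control for each of the 56 tested members, grouped by role, with bars for the 95% confidence interval, dotted lines at 0.5 either side of 0, and color for the call. The TNF ligands lie mostly to the right, up to 2.79 for Tnf, while Il7r stands farthest right at 4.04 and Tnfrsf11b farthest left at -1.31.

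Among the TNF ligands 5 of 6 tested were higher in MCD, beside 19.2% of all genes tested. In each of the 5 all 12 MCD livers lay above all control livers, beside 9.5% of all genes tested. Of the 3 ligands that passed the filter in each diet 2 were higher, beside 13.4% of all such genes. Of the 5, Tnf, Tnfsf13 and Tnfsf13b passed the filter through MCD alone, which favors genes higher in MCD. They reached its limit in 1, 11 and 9 control libraries. Ltb and Tnfsf12 passed it in each diet. Tnf, the founding inflammatory ligand of the family, was at 0.0590, 0.248 and 0.616 CPM in control (lowest, median and highest of 12 livers) and at 1.05, 1.90 and 2.80 CPM in MCD. The 2 ranges were apart, although the control counts were between 1 and 11 reads per library. Tnf thus differed by 2.79 (SE 0.25, FDR = 5.0e-10), a 6.90-fold rise. Ltb, the lymphotoxin chain that signals to stromal cells through the lymphotoxin beta receptor, ran from 0.682 to 4.01 CPM in control, with a median of 1.49, and from 5.99 to 15.0 CPM in MCD, with a median of 8.92. It rose by 2.57 (SE 0.22, FDR = 1.6e-10), with no overlap between the diets.

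The 300 bases around the RefSeq start of 3 cytokine genes (GRCm38.p6, 250 bases before the start and 50 after it) are printed because they set side by side a gene that rose and holds a match to the kappa B motif, a gene that rose and holds none, and a gene that holds a match and was hardly detected. Capitals mark the match to the kappa B motif, the consensus bound by NF-kappa B, searched on both strands. The Ltb window is on the plus strand at chr17:35194257-35194556, the Tnf window on the minus strand at chr17:35201958-35202257 and the Il6 window on the plus strand at chr5:30012864-30013163.
Ltb: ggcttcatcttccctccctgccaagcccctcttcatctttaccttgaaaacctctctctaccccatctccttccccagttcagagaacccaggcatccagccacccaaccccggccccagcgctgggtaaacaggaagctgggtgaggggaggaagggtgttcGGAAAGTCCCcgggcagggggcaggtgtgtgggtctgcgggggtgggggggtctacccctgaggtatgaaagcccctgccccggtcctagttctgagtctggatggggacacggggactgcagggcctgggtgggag
Tnf: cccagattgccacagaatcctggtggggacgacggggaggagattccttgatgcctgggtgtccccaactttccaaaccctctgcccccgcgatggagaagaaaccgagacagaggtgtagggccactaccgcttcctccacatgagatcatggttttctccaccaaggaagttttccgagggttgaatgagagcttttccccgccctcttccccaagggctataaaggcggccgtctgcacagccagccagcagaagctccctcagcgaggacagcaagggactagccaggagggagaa
Il6: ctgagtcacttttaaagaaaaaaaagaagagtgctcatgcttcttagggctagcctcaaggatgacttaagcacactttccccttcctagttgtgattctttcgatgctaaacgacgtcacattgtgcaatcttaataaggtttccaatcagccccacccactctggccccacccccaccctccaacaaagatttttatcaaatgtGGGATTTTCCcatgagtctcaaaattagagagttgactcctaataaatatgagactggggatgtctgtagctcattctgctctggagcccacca

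The match begins 87 bases before the start in Ltb and 44 bases before it in Il6, and the Tnf window holds none, which says only that these letters are not in this window. RefSeq promoters were found for 93 of the members. The kappa B motif was in 8.93% of the 112 promoters of these genes and in 4.51% of 32851 promoters of all genes, and among promoters of members called higher it was in 3 of 34 (8.82%), against 1 of 21 (4.76%) in promoters of the other tested members. Members also held TGANTCA, the AP-1 motif, in 17.9% of promoters beside 7.81% of all, and TTCNNNGAA, the STAT motif called GAS, in 17.0% beside 8.3% of all. Among promoters of members called higher, the AP-1 motif was in 14.7% and the GAS motif in 11.8%, against 19.0% and 14.3% in promoters of the other tested members. Some of these genes have several promoters that share bases.

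Tnfsf13 (APRIL) and Tnfsf13b (BAFF), survival factors for B cells and plasma cells, were both higher in MCD. Tnfsf13 had a median of 1.32 CPM in control, within 0.530 to 2.56, and of 6.70 CPM in MCD, within 4.38 to 10.8. Its difference was 2.29 (SE 0.20, FDR = 2.2e-10), and that of Tnfsf13b was 1.65 (SE 0.21, FDR = 1.7e-07). Tnfsf12 (TWEAK), the ligand of the Fn14 receptor, was the most abundant ligand of the group. It ranged from 11.8 to 21.3 CPM in control and from 24.6 to 39.3 CPM in MCD, and rose by 0.81 (SE 0.10, FDR = 4.5e-08). Tnfsf12 and Tnfsf13 both share exons on the same strand with the read-through gene Tnfsfm13, so reads of the 3 genes cannot be fully told apart. Tnfsf10 (TRAIL), a ligand of death receptors, had a difference of -0.47 and did not pass the test (FDR = 0.037).

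Among the TNF receptors without a death domain, 4 passed the filter in each diet, of which 2 were higher and 1 was lower. The other 4 (Tnfrsf13b, Tnfrsf11a, Tnfrsf4 and Tnfrsf18) passed it through MCD alone and were all called higher. Tnfrsf12a encodes Fn14, the TWEAK receptor, a small receptor found on epithelial and progenitor cells after injury. It was at 3.53, 7.44 and 12.3 CPM in control and at 19.9, 22.0 and 28.3 CPM in MCD, with a wide gap between the diets. The rise was 1.53 (SE 0.15, FDR = 1.8e-09). Tnfrsf13b (TACI), a receptor for APRIL and BAFF on B cells, rose by 2.16 (SE 0.22, FDR = 3.7e-09) with control levels that reached the CPM limit of the filter in 3 libraries. Tnfrsf11a (RANK), known from osteoclasts and dendritic cells, rose by 1.997 (SE 0.19, FDR = 1.4e-09), and the diets did not overlap for either gene. Tnfrsf4 (OX40) and Tnfrsf18 (GITR), costimulatory receptors of T cells, rose by 1.40 and 0.90 from medians of 0.361 and 0.570 CPM.

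The 2 receptors of TNF itself differed in their response, which the ratio given further on tests. Tnfrsf1b (TNFR2), the receptor carried mostly by leukocytes and endothelium, was at 31.7, 41.1 and 52.7 CPM in control and 49.8, 63.4 and 90.2 CPM in MCD. It rose by 0.68 (SE 0.097, FDR = 1.0e-06), with 11 of 12 MCD livers above all control livers. Tnfrsf1a (TNFR1), the death-domain receptor that most cells carry, had medians of 119 CPM in control and 121 CPM in MCD. Its difference was 0.04, with a 95% interval from -0.11 to 0.18, and it did not pass the test (FDR = 0.68).

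Of the 4 death-domain receptors tested, 1 was higher and another depended on the setting. Tnfrsf21 (death receptor 6) rose by 0.57 (SE 0.15, FDR = 0.0019), with 3 MCD livers above all control livers, or 9 without control replicate 3 (16.5 CPM, the next at 14.4). Tnfrsf10b, the mouse TRAIL receptor, had a difference of 1.19 with a wide interval, from 0.37 to 2.02, and an FDR of 0.012. Its median was 0.224 CPM in control and 0.809 CPM in MCD, so that the test turned on few reads. It was called higher with DESeq2 (1.27, FDR = 0.0041), limma-voom (1.88, FDR = 0.00038), upper-quartile factors (1.32) and total counts alone (1.499), and without control replicate 4 (1.52), 8 (1.38) or 11 (1.37).

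Lower in MCD were Tnfrsf11b and Tnfrsf14. Tnfrsf11b encodes osteoprotegerin, a secreted decoy receptor for RANK ligand and TRAIL, and was at 0.454, 2.66 and 4.37 CPM in control and 0.400, 1.02 and 1.84 CPM in MCD. Its difference was -1.31 (SE 0.26, FDR = 8.5e-05), though the ranges overlapped and 1 MCD liver was below all control livers, or 11 without control replicate 12, the next control liver being at 1.79 CPM. Tnfrsf14 (HVEM), a receptor that binds LIGHT and BTLA, differed by -0.51 (SE 0.16, FDR = 0.0074), just past both limits. The call was lost with each other scaling, filter and tool and without 16 of the 24 libraries, one at a time, and reached -0.17 (FDR = 0.44) with total counts alone.

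**Figure D2:**
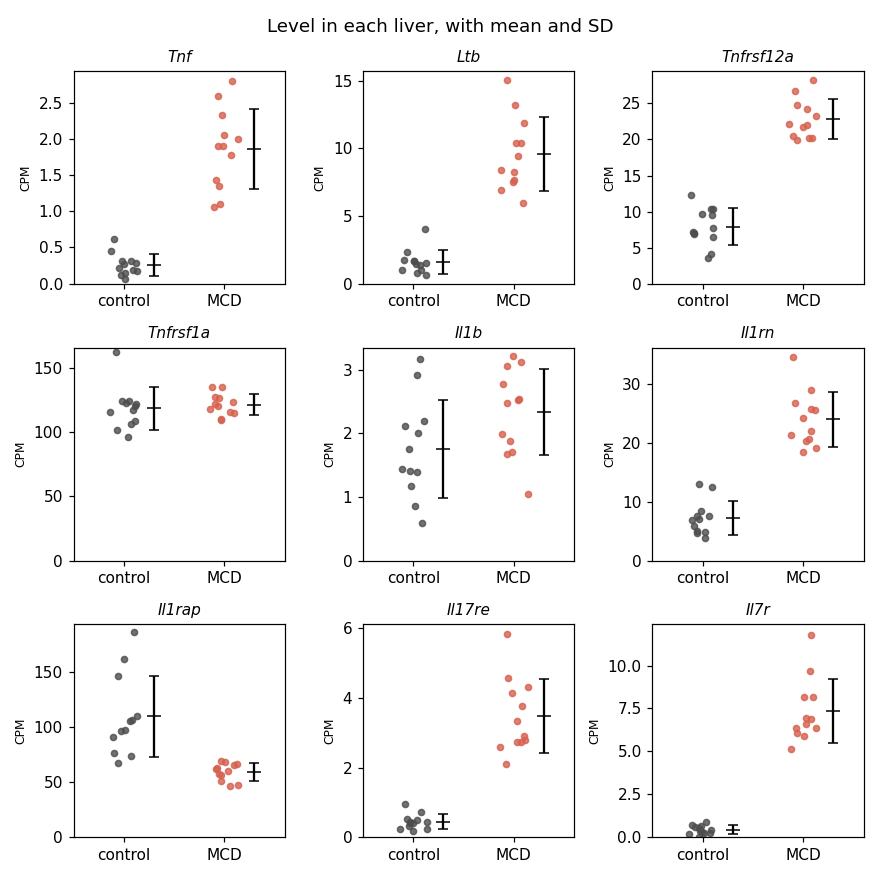
Each point is the level of a gene in 1 liver (y axis, CPM, starting at 0) by diet (x axis), with the mean and SD of 12 livers beside the points. Tnf, Ltb, Tnfrsf12a, Il1rn, Il17re and Il7r show separate clouds for the diets, Tnfrsf1a and Il1b overlap, and Il1rap shows a wide control cloud above a narrow MCD one.

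In the IL-1 family the gene of the natural antagonist rose, while those of IL-1 alpha and IL-1 beta did not pass the test with TMM scaling. Il1rn encodes the IL-1 receptor antagonist, which occupies the IL-1 receptor without signaling, and it was at 3.78, 6.95 and 13.01 CPM in control and at 18.3, 23.1 and 34.6 CPM in MCD. All 12 MCD livers were above the highest control liver, and the rise was 1.72 (SE 0.17, FDR = 2.3e-09). By contrast Il1b, the secreted agonist made by macrophages, had medians of 1.59 and 2.50 CPM and overlapped widely between the diets. Its difference of 0.42 (SE 0.22) did not pass the test (FDR = 0.11), although with total counts alone it was 0.79 and was called (FDR = 0.0050). Il1a (-0.26, or 0.07 with total counts alone) and Il18 (-0.33, or 0.06 with total counts alone) did not pass the test either. Il33, an alarmin of stromal and endothelial nuclei, rose by 0.63 (SE 0.18, FDR = 0.0035), having passed the filter through MCD alone, with 5 of 12 MCD livers above all control livers. Its receptor gene Il1rl1 (ST2) did not pass the filter, with 0 to 2 counts in control and 0 to 11 in MCD.

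Il1rap, the accessory chain that the receptors for IL-1, IL-33 and IL-36 share, was one of the most abundant members and was lower in MCD. The control livers spread from 67.2 to 186 CPM around a median of 101, and the MCD livers from 46.3 to 69.5 CPM around a median of 60.6. The ranges overlapped slightly, with 10 of 12 MCD livers below all control livers, and the difference was -0.89 (SE 0.14, FDR = 4.2e-06). It lay between -0.93 and -0.51 and kept its call over all scalings, filters, tools and left-out libraries tried, and only a log2 limit of 1 removed it. Il1r1, the signaling receptor that IL-1 binds first, rose by 0.58 (SE 0.14, FDR = 0.00075), with 1 MCD liver above all control livers, or 6 without control replicate 1. Il1rl2, the IL-36 receptor chain, rose by 2.07 (SE 0.23, FDR = 1.4e-08) from a control median of 0.455 CPM, and it too passed the filter through MCD alone. Il18bp, the secreted inhibitor of IL-18, had a difference of 0.38 (FDR = 0.0046), below the fold limit, which it passed with upper-quartile factors (0.53) and total counts alone (0.74). Il1bos, the antisense gene over Il1b, had at most 1 count in control and 2 in MCD.

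Il7r showed the largest difference of all tested members. It encodes the IL-7 receptor alpha chain, which T cells and innate lymphoid cells need to survive. Counts were 0, 8 and 15 in control (lowest, median and highest) and 126, 160 and 304 in MCD, or medians of 0.419 and 6.72 CPM. The fitted difference was 4.04 (SE 0.25, FDR = 1.2e-12), about 16.5-fold, with the lowest MCD liver at 5.13 CPM and the highest control liver at 0.908 CPM. Il7, the ligand, was at medians of 0.545 and 0.743 CPM, and its difference of 0.70 did not pass the test (FDR = 0.022). Il7 was called with upper-quartile factors (0.84) and total counts alone (1.06), and without control replicate 3 (0.84) or MCD replicate 5 (0.80).

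Of the 5 receptor chains of the common gamma chain group that passed the filter in each diet, 2 were higher, Il2rg and Il2rb. Il7r and Il21r, also called higher, passed it through MCD alone. Il2rg, the gamma chain itself, was at 1.89, 3.58 and 5.71 CPM in control and 6.61, 9.26 and 12.3 CPM in MCD, without overlap, and rose by 1.35 (SE 0.16, FDR = 5.8e-08). It shares exons on the same strand with Gm20489. Il21r, the IL-21 receptor of lymphocytes, rose by 2.26 (SE 0.25, FDR = 2.1e-08), and Il2rb, the beta chain for IL-2 and IL-15, by 1.09 (SE 0.21, FDR = 8.1e-05). The other 3 tested chains were not called. Il4ra differed by 0.21 (FDR = 0.036, but called at 0.59 with total counts alone), Il15ra by -0.43 (FDR = 0.00061, within the fold limit) and Il13ra1 by -0.12 (FDR = 0.44), the last of which turned to 0.03 with upper-quartile scaling and 0.24 with total counts alone. Over the other settings tried, the difference of Il15ra ranged from -0.43 to -0.08. Il15, which Il15ra presents to neighboring cells, had a difference of 0.33 (FDR = 0.081), and was called at 0.69 with total counts alone. The cytokines Il2, Il4, Il9, Il13 and Il21 were not tested, with no library above 6 counts.

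In the IL-17 receptor group the 2 chains called higher of 5 tested, Il17re and Il17rd, passed the filter through MCD alone, and of the 3 that passed it in each diet 0 were called. Il17re, the chain that pairs with Il17ra to bind IL-17C on epithelium, was at 0.195, 0.425 and 0.955 CPM in control and 2.12, 3.12 and 5.83 CPM in MCD. The diets were apart, and the rise of 2.94 (SE 0.22, FDR = 2.0e-11) was next to that of Il7r in size. Il17rd, an inhibitor of receptor tyrosine kinase signaling as well as a chain of this family, rose by 1.501 (SE 0.28, FDR = 5.1e-05). The shared chain Il17ra (0.41, FDR = 0.0010) and Il17rb (0.46, FDR = 9.5e-05) were below the fold limit, and Il17rc, at medians of 52.6 and 59.0 CPM, had a difference of 0.05 (FDR = 0.72). Il17rb passed that limit with relative log expression factors (0.52), DESeq2 (0.52), the filter of 10 counts (0.54), upper-quartile factors (0.61) and total counts alone (0.80), and without any of 6 MCD libraries (0.502 to 0.53). Il17ra passed it with upper-quartile factors (0.55) and total counts alone (0.75). The ligands were hardly seen: Il17a, Il17b, Il17f and Il25 had 0 counts in all 24 libraries, where 3 counts per library would allow between 0.109 and 0.227 CPM. Il17c had 0 counts in every control liver and 0 to 6 in MCD, with a median of 0.5. Il17d had 0 to 7 counts in control and 6 to 44 in MCD, and passed the count limit in 8 libraries where 12 were needed.

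Among the IL-10 family receptors 2 of the 3 that passed the filter in each diet were higher, and Il20rb passed it through MCD alone. Il10ra, the leukocyte chain that binds IL-10, was at 3.84, 7.52 and 11.1 CPM in control and 16.5, 19.1 and 26.2 CPM in MCD. Il10rb, the chain that IL-10, IL-22 and interferon lambda share, was at 4.84, 11.01 and 12.6 CPM in control and 19.7, 23.9 and 33.9 CPM in MCD. Neither gene overlapped between the diets, and they rose by 1.46 (SE 0.15, FDR = 5.0e-09) and 1.39 (SE 0.15, FDR = 1.0e-08). Il10rb shares exons on the same strand with Gm21970. Il20rb rose by 0.88 (SE 0.22, FDR = 0.0010). Il22ra1, the IL-22 chain of hepatocytes and epithelium, had a difference of -0.29 (FDR = 0.16), or 0.05 with total counts alone. Il10 itself had 0 to 3 counts in control and 0 to 8 in MCD and was not tested.

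The receptor genes for IL-6 were abundant and neither was called. Il6ra had medians of 66.1 and 64.0 CPM and a difference of -0.17 (FDR = 0.37), or 0.16 with total counts alone. Il6st, which encodes gp130, the signaling chain of the whole IL-6 family, had medians of 163 and 117 CPM and a difference of -0.45 (FDR = 9.1e-05), within the fold limit. Over the other settings tried the Il6st difference ranged from -0.44 to -0.10, with an FDR of up to 0.46. For Il6st 0 MCD livers were below all control livers, or 12 without control replicate 12 (85.8 CPM, the next at 140.7). Il6 had at most 2 counts in any library of either diet. In the same group Il11ra1, the IL-11 receptor carried by stellate cells and hepatocytes, rose by 0.58 (SE 0.12, FDR = 0.00013), with 2 MCD livers above all control livers, or 11 without control replicate 12 (64.8 CPM, the next at 47.2). Il11ra2 rose by 2.05 (SE 0.46, FDR = 0.00038) from 0 to 13 control counts, but it is a near copy of Il11ra1, so its counts may hold reads of the other gene. Il12rb1 differed by -0.23 (FDR = 0.50), or 0.16 with total counts alone. None of the 7 cytokines of the IL-6 and IL-12 families passed the filter, among them Il23a with 0 to 6 counts in control and 3 to 28 in MCD.

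Outside these groups, Il3ra, the IL-3 receptor chain of myeloid cells and basophils, rose by 1.39 (SE 0.19, FDR = 4.2e-07). Control livers ran from 2.86 to 15.3 CPM and MCD livers from 11.9 to 22.2 CPM, and control replicate 12 alone made the ranges overlap, the next control liver being at 6.11 CPM, so that 4 MCD livers were above all control livers, or 12 without it. Il34, a ligand of the CSF1 receptor that supports macrophages, rose by 0.84 (SE 0.16, FDR = 5.9e-05). Il16, a T cell attractant, rose by 0.52 (SE 0.14, FDR = 0.0019) at the edge of the fold limit and fell short of that limit when any of 4 control libraries was left out. Il4i1, an enzyme of amino acid breakdown in antigen-presenting cells that is no interleukin, rose by 0.81, having passed the filter through MCD alone. It shares exons with Nup62 on the same strand.

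Ratios of 2 genes within a liver do not depend on how libraries are scaled, and 9 of 13 planned ratios could be computed because both genes passed the filter. The log2 ratio of Il1b over Il1rn averaged -2.08 ± 0.65 (SD, n = 12) in control and -3.39 ± 0.38 (SD, n = 12) in MCD. The agonist thus lost ground to the antagonist by 1.31 in MCD (2-sided permutation test, Benjamini-Hochberg p over 9 ratios = 6e-05), with 9 of 12 MCD livers below all control livers. The ratio of Il1rap over Il1rn went from 3.94 ± 0.89 to 1.32 ± 0.32, a difference of -2.62 (permutation p adjusted = 6e-05) without overlap. Both raw p-values were 2e-05, the smallest that 100000 resamples can give. Il18 over Il18bp differed by -0.69 (adjusted p = 0.0016), with 2 MCD livers below all control livers.

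Tnfrsf1b over Tnfrsf1a was -1.53 ± 0.31 in control and -0.90 ± 0.27 in MCD, a shift of 0.63 toward TNFR2 (adjusted p = 6e-05). Tnfsf12 over its receptor Tnfrsf12a differed by -0.77 (adjusted p = 0.00011), since the receptor rose more than the ligand. Tnfsf10 over Tnfrsf10b differed by -2.37 (adjusted p = 9e-05) and rests on the low receptor counts given above, with Tnfrsf10b having passed the filter through MCD alone, which favors a lower ratio in MCD. Il15 over Il15ra differed by 0.79 (adjusted p = 0.00099), with 3 MCD livers above all control livers, or 7 without control replicate 5. Il6ra over Il6st, at 0.29 (adjusted p = 0.13), and Il34 over Il33, at 0.12 (adjusted p = 0.73), did not pass the test.

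**Figure D3:**
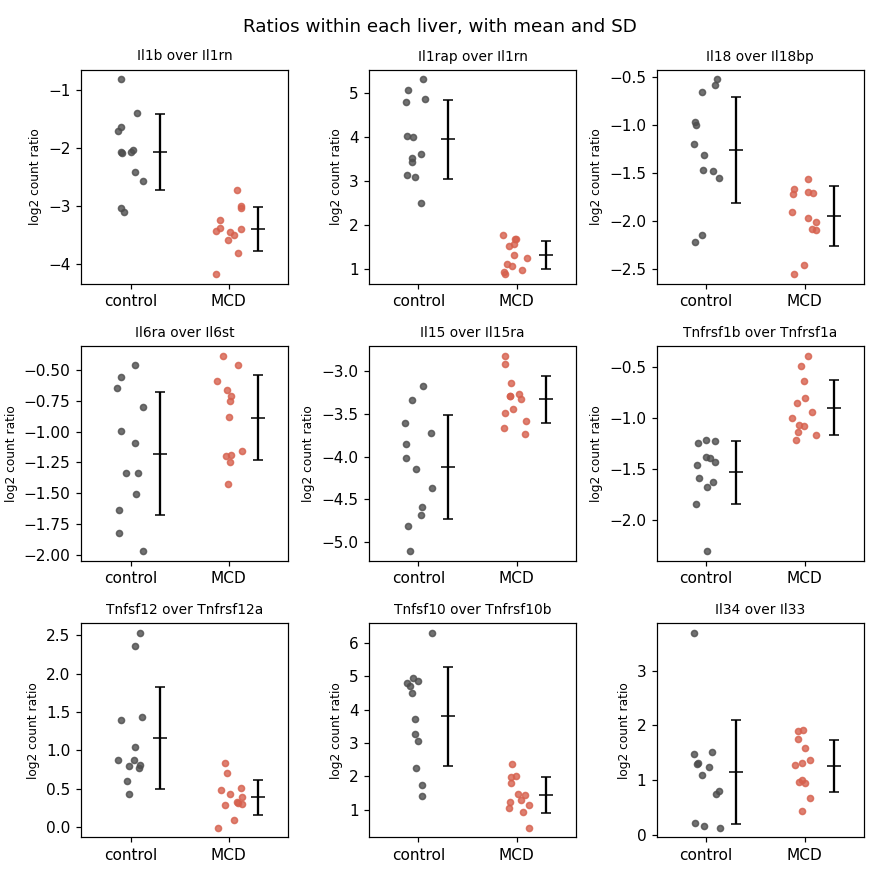
Each panel gives the log2 ratio of 2 counts in each liver (y axis) by diet (x axis), with the mean and SD of 12 livers. Il1rap over Il1rn is the pair whose diets are apart, with means of 3.94 and 1.32, and the MCD points are packed more closely than the control points in all 9 panels.

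Compared per kilobase of the longest transcript, the members' levels were led by receptors in both diets. Tnfrsf1a came first, at 55.1 ± 7.79 CPM per kilobase in control and 56.4 ± 3.96 in MCD (SD, n = 12). Il17rc at 25.1 ± 8.89 and Il1rap at 24.3 ± 8.10 followed in control and did not differ beyond their spread. In MCD Il17rc stood at 26.0 ± 1.28, ahead of Tnfrsf12a at 23.2 ± 2.78, Il11ra1 at 22.2 ± 3.10 and Tnfsf12 at 20.8 ± 2.698, and neighbors among these 4 differed by less than the larger of their SDs. Tnfrsf12a stood at 8.05 in control, at rank 12, and Il1rap at 13.1 ± 1.75 in MCD, at rank 8. Tnf was low on this scale in both diets, at 0.161 and 1.13 CPM per kilobase.

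**Figure D4:**
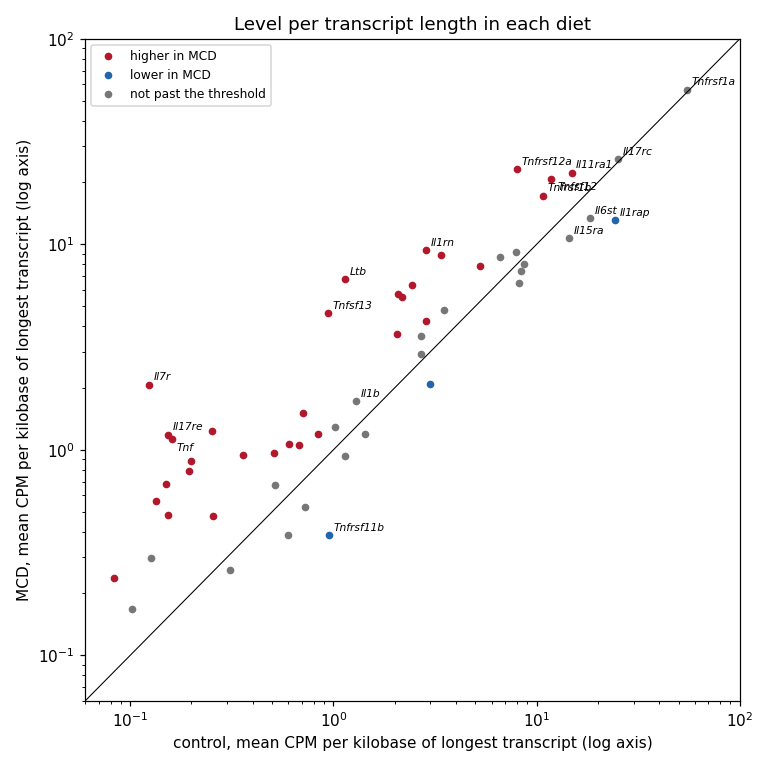
Each point is 1 of the 56 tested members, with its mean CPM per kilobase of the longest transcript in control (x axis, log scale) and in MCD (y axis, log scale), and the line marks equal levels. Tnfrsf1a lies on the line at the top right, near 55 in both diets, while Il7r, Tnf and Il17re lie well above the line at the low end.

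Genes that act with these families, 78 in a list of kinases, adaptors, NF-kappa B and STAT factors, inhibitors and related receptors and cytokines, were also counted. Of the 64 that passed the filter in each diet, 19 were higher and 5 lower, with a median of 0.05, beside the 13.4%, 20.9% and -0.15 of all such genes. Another 7 of the 8 that passed through MCD alone were higher, among them Lif, Cd40 and Relt, for 26 of 72 in all. Lif, a cytokine of the IL-6 family, rose by 3.04 (SE 0.38, FDR = 1.1e-07) from control counts of 0 to 9. Cd40, a TNF receptor of antigen-presenting cells, rose by 2.46, Csf2rb2, a beta chain for IL-3, by 2.39, and Clcf1, a ligand of the CNTF receptor, by 2.37, each without overlap between the diets. Csf2rb2 is a near copy of Csf2rb, so their reads may be mixed. The noncanonical NF-kappa B genes Relb and Nfkb2 rose by 1.83 (SE 0.17) and 0.90 (SE 0.13). Nfkb1 at 0.20 (FDR = 0.013, but called at 0.55 with total counts alone) and Rela at 0.02 (FDR = 0.89) did not pass the test.

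Lower were Lifr, the receptor chain for LIF (-0.92, SE 0.16, FDR = 2.5e-05), Cflar, an inhibitor of caspase 8 (-0.87, SE 0.096, FDR = 1.5e-08), Chuk, the IKK alpha kinase (-0.80, SE 0.12), Stat5b (-0.55, SE 0.090) and Traf6 (-0.51, SE 0.069). Stat5b and Traf6 were close to the fold limit and lost their call with relative log expression factors (-0.49 and -0.45), DESeq2 (-0.49 and -0.45), upper-quartile factors (-0.40 and -0.36), the filter of 10 counts (-0.47 and -0.43) and total counts alone (-0.21 and -0.16). Traf6 lost it without a filter as well (-0.47), and without any of 15 of the 24 libraries left out one at a time (-0.53 to -0.43 over the 24). Stat5b also lost it without control replicate 3, MCD replicate 2 or MCD replicate 10, and Chuk lost it with total counts alone (-0.46). Lif and its receptor chain differed in opposite directions, but Lif had passed the filter through MCD alone, which favors a rise. Stat3 at -0.24 (FDR = 0.014) and Ltbr at -0.17 (FDR = 0.16) did not pass the test and turned to 0.13 and 0.23 with total counts alone. Fas had a difference of 0.03 (FDR = 0.80). Socs3, the feedback inhibitor of IL-6 signaling, ranged from 4.95 to 37.9 CPM in control because of 1 high liver and from 12.4 to 22.5 CPM in MCD, and its difference of 0.46 did not pass the test (FDR = 0.088). Without that liver, control replicate 4, Socs3 was called higher at 0.73 (FDR = 0.00057), as it was with limma-voom (0.68) and total counts alone (0.83).

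Markers of other cells moved with the diet, and for these too passing the filter through MCD alone favors genes that are higher in MCD. All 8 markers of monocyte-derived macrophages were higher, 6 of them having passed through MCD alone, and their sum ran from 21.7 to 86.6 CPM in control and from 642 to 1358 CPM in MCD, beside the rises of Tnf, Il1rn, Il10ra and Il3ra. Of 10 T cell markers, 9 were tested, all through MCD alone, and 8 were called higher, with sums of 3.36 to 11.9 and 9.66 to 32.0 CPM, beside Il7r, Il2rb, Il21r and Ltb. All 6 cholangiocyte markers were higher, 3 of them through MCD alone, with sums of 4.23 to 17.3 and 46.2 to 111 CPM, beside Il17re and Tnfrsf12a. Of 8 stellate cell markers, 6 were higher and 1 lower (198 to 460 and 556 to 913 CPM). For B cells, 2 of 7 markers were higher, 1 of them through MCD alone (4.57 to 23.4 and 13.9 to 22.2 CPM), beside Tnfrsf13b, and for plasma cells 1 of the 4 tested out of 5 (26.5 to 277 and 22.4 to 257 CPM). Of 6 dendritic cell markers, 5 were tested and 2 were higher, with 0 higher of the 2 that passed in each diet (9.54 to 19.5 and 10.8 to 17.7 CPM). NK cell and neutrophil lists had only 2 tested markers each, of 7 and of 8, and the called ones, both in each list, included 0 that passed in each diet.

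No marker was higher in the other 3 lists of liver cells. Sinusoidal endothelial markers were lower in 5 of 6 (173 to 259 and 98.4 to 163 CPM). Resident Kupffer cell markers were lower in 5 of 7 (155 to 462 and 85.8 to 311 CPM), 3 of them among the 5 that passed in each diet. The other 2 lower ones had passed neither in each diet nor through MCD alone. Hepatocyte markers were lower in 3 of 8, beside the lower Il1rap. Of other receptors that hepatocytes carry, Tnfrsf1a, Il6ra and Il22ra1 were not called and Il11ra1 rose. No mast cell marker of 6 passed the filter, and Fcer1a was at 0 in every library. The members named beside these lists are examples, and the part of these cell types in the differences of the members was not tested.

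Control livers varied more than MCD livers, in the members as in the whole table. Over the 33 members that passed the filter in each diet, the coefficient of variation of the CPM had a median of 31.1% in control and 15.98% in MCD, and it was larger in control for 29 of them (87.9%). Over the 11633 genes of all kinds that passed in this way, the medians were 23.8% and 12.3%, and it was larger in control for 91.3%. Control replicate 12, the library with the smallest scaling factor, held the highest control level for 12 members and the lowest for 18. Without this library 32 members were higher and 4 lower, the added lower gene being Tnfsf10 at -0.52. MCD replicates 2 and 8 held the highest MCD level for 13 and 12 members.

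The filter decided which low members were tested, so the genes at its edge are given here. It asked for 0.510 CPM in at least 12 libraries. Just inside were Il11ra2 with 12 libraries and Tnf with 13, and just outside were Il18rap and Tnfrsf23 with 11 each. Of the members left out, Tnfsf9, the ligand of the costimulatory receptor 4-1BB, had counts of 0, 1 and 4 in control and 1, 13 and 24 in MCD, and its receptor gene Tnfrsf9 had 0, 1 and 3 and 2, 4.5 and 12. Lta, the soluble lymphotoxin, had 0, 0 and 6 in control and 1, 4 and 11 in MCD, and Il1r2, the decoy receptor of IL-1, had 0, 1 and 7 and 3, 6 and 15. These counts are low, and the filter kept the genes out of the test. With no filter, 101 members were tested, of which 40 were called higher and 2 lower.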

How the data were processed

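Whole livers of 24 mice, 12 per diet, were profiled by RNA sequencing of polyadenylated RNA. The authors deposited raw counts per Ensembl gene, without normalization, with 1 column per library and 0 columns left unused here. The submitters' processing notes name mm10, STAR 2.7.3a and bcl2fastq without their roles. The study's methods describe a stranded library kit, STAR for alignment and PISCES for quantification with a human reference, and whether the mouse table was made in this way, with strand used in counting, is not given in the sources used here. Reads of overlapping genes on opposite strands therefore may not be told apart, and near copies may share reads.

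Symbols, longest transcripts and exon overlaps came from GENCODE mouse release M21, which named 51745 of 56205 rows, and promoter windows from RefSeq (GRCm38.p6). Genes were kept with filterByExpr by diet, scaled with TMM factors and compared with edgeR 4.0.16 (glmQLFit and glmQLFTest, R 4.3.3) over all 24 libraries and without a covariate, with Benjamini-Hochberg adjustment over the 14109 genes tested. Calls needed an FDR no higher than 0.01 and a log2 fold change beyond 0.5 in either direction, the limits of the study for human liver. Intervals are at 95% and the biological coefficient of variation was 26.8%. Library totals of 16388650 to 24915175 counts bound the precision of low genes. Log2 ratios of counts used a pseudocount of 0.5 and 2-sided permutation tests with 100000 resamples (scipy 1.17.1). The fit was tested on simulated data.

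The members and lists were chosen with earlier results of these data known. Named with values were up to 14 members with the largest rise and up to 10 with the largest fall past the threshold at a mean of at least 0.5 CPM, the tested genes of the ratios, a set of leading cytokines and receptors, the members just inside and outside the filter, and of the signaling list the strongest in each direction with leading factors. Tnfrsf4, Tnfrsf18, Il2rb, Il7, Il20rb, Il22ra1, Il12rb1, Il16, Il4i1, Il1rl1, Il17c, Il17rb, Il13ra1, Il1r1, Il1r2 and Traf6 were named after their values were seen, as were the undetected cytokines. Alternatives were other scalings, other filters, DESeq2 1.42.0, limma-voom (limma 3.58.1), a replicate block, a sex-linked score as covariate, other limits and leaving out each library.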

Additional observations from a re-analysis of the deposited data

How the results depend on the processing

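The count of members higher in MCD, 31, stayed between 30 and 40 under the other scalings, without a filter, with DESeq2, limma-voom, the replicate block or the sex-linked score, and was 16 of 34 tested with at least 10 counts in every sample and 20 at a log2 limit of 1. The count of lower members, 3, was 1 in both of these and 7 at an FDR limit of 0.05 with the fold limit dropped. Of the signaling genes, 5 were lower, against 3 with upper-quartile factors, relative log expression factors, the filter of 10 counts in every sample or DESeq2, 2 with total counts alone, 0 at a log2 limit of 1 and 19 at the FDR limit of 0.05. Leaving out 1 library at a time gave 30 to 33 higher and 2 to 4 lower members, and 3 to 5 lower signaling genes, with 3 without control replicate 3, MCD replicate 2 or MCD replicate 10. Genes that did not pass the test changed sign with total counts alone, at 0.24 for Il13ra1 (0.0326 with upper-quartile factors), 0.16 for Il12rb1, 0.0606 for Il18, 0.0695 for Il1a, 0.0494 for Il22ra1, 0.16 for Il6ra, 0.23 for Ltbr and 0.13 for Stat3. Without 1 library, Fas ranged from -0.0047 to 0.10 and Rela from -0.0123 to 0.14. All 9 ratios kept their direction and call in every alternative run. The cause of these changes was not tested. Same-numbered libraries of the 2 diets correlated above 0.1 in 8 of 12 pairs (-0.28 to 0.35), with a median of 0.23 beside -0.06 for differently numbered pairs. As 2 of 12 correlated best with their own number, the numbers were not taken to pair the animals. The replicate block gave 30 higher and 2 lower members, without Il33 (0.68, FDR = 0.013) and Tnfrsf14 (FDR = 0.015), and 4 lower signaling genes, without Traf6 at -0.4997. Members with few counts limit the test, and their SEs are the widest.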
